A study of Mus musculus with 7 samples.

Results

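The genes for the proteins of the cytosolic ribosome were followed in leukocytes of the mouse heart after myocardial infarction. Members were taken by symbol, as genes named Rpl or Rps with a number, together with Rplp0, Rplp1, Rplp2 and Rpsa, without the Rps6 kinases and the pseudogenes. This gave 86 of the 27514 genes that the annotations of all libraries share. They comprise 77 core ribosomal proteins, 46 of the large and 31 of the small subunit, and 9 genes outside that core. These 9 are the paralogs Rpl3l, Rpl7l1, Rpl10l, Rpl22l1, Rpl36al, Rpl39l, Rps27l and Rps27rt, and Rps19bp1, which encodes a protein that binds Rps19 and is no ribosomal protein. Fau, whose ubiquitin-like fusion precursor yields a ribosomal protein, does not carry such a symbol and is not a member.

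Each ribosome holds about 1 copy of every ribosomal protein, so the genes are often described as a regulon with balanced output. Many of their mRNAs begin with a C followed by a run of pyrimidines, the 5′ terminal oligopyrimidine (TOP) motif, through which the mTOR pathway sets their translation. Neutrophils leave the bone marrow as short-lived cells with a condensed nucleus and little RNA, while monocytes mature in tissue into macrophages, and naive lymphocytes devote a large part of their mRNA to ribosomal proteins.

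All mice were C57BL6/J with the left coronary artery tied permanently, unless named as steady state, sham or control. Male mice gave 5 libraries of CD45+ heart leukocytes, at steady state without infarct (5 mice), day 1 (5 mice), day 3 (5 mice), day 5 (5 mice) and day 7 (3 mice), made with 10x chemistry version 2 after a step that lowered the number of neutrophils. A separate pool of CD11b+ heart cells of male mice, chemistry version 3, held day 1 (5 mice), day 3 (5 mice) and day 5 (3 mice) under 1 hashtag each. In both experiments, cells reached by an intravenous CD45.2 antibody were left out of the sort and hearts were digested with enzymes. A second CD11b+ pool combined blood and heart cells of mice 8 to 10 weeks old under 7 hashtags, from no surgery (3 mice), sham day 1 and day 3 (3 mice each) and infarction day 1 and day 3 (5 mice each). It was depleted of Ter119+, B220+ and NK1.1+ cells, neutrophils were brought to about 1 for each other cell, and its hearts were dissociated mechanically. Its hashtags could not be matched to conditions, so they are given as values and enter no comparison between conditions. Each library joined the cells of several mice, and a time point is therefore 1 library or hashtag per experiment, and p-values measure the spread between these samples and not between mice.

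After filters, 522 to 1793 cells per CD45+ library, 4263 cells of the heart pool and 9999 cells of the blood and heart pool were used, with 3611089 to 11511763, 93069820 and 68219740 UMIs. At most 28 cell barcodes were shared by any pair of libraries. Cells were clustered without the ribosomal protein genes and named by markers. Neutrophil markers (16 genes such as S100a8 and S100a9) made up 5.31% to 21.8% of the UMIs of heart neutrophils and 0.0583% to 1.91% of those of monocytes and macrophages. Dendritic, B, T and NK cells were named in the same way. UMIs were counted at the 3′ end, so a level does not scale with gene length. The same gene was read through other chemistry and annotation in each experiment, and levels are compared within an experiment.

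Sequences around the RefSeq start sites (build GRCm38.p6) were at hand for 66 of the 86 members. A window from 10 bases before to 20 bases after the start was searched for a C followed by at least 5 letters that are each C or T, on the gene's own strand, and 34 of 66 members held such a run (51.5%), against 22% of 27025 genes in the table. On the opposite strand the run occurred in 9.09% of these members and in 24.7% of all genes. The run could lie anywhere in the window, as in Rpl11, where it began at position 14 after the start. A match describes these letters only and does not place a TOP motif at the first base of the mRNA. The windows below belong to the members on which the results turn, so that the starts of paralogs can be set side by side. Capitals mark the longest run. They lie at chr3:90213629-90213658 on the minus strand (Rps27), chr9:114982720-114982749 on the minus strand (Rps27rt), chr9:66946076-66946105 on the plus strand (Rps27l), chr7:3704031-3704060 on the plus strand (Rps9), chr17:33955646-33955675 on the minus strand (Rps18), chr17:28328461-28328490 on the plus strand (Rpl10a), chr4:152325716-152325745 on the plus strand (Rpl22), chr3:28805498-28805527 on the plus strand (Rpl22l1) and chr17:24727816-24727845 on the plus strand (Rpl3l).
Rps27: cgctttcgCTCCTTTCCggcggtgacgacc
Rps27rt: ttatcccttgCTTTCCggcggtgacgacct
Rps27l: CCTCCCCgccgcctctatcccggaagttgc
Rps9: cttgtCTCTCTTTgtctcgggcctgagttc
Rps18: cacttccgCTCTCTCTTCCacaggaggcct
Rpl10a: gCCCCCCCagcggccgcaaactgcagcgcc
Rpl22: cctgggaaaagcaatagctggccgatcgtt
Rpl22l1: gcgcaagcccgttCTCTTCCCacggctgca
Rpl3l: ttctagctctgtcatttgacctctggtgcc
Rps27 and Rps27rt, a retrogene copy of Rps27, shared a run of 19 of the 30 bases, and reads of the pair may have been divided between them in counting. Rpl22 and Rpl3l held no run in this window, while the Rpl22 paralog Rpl22l1 did.

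Ribosomal protein genes took a small share of the UMIs of heart neutrophils and a several-fold larger one of monocytes and macrophages. Each cell was thinned to 2000 UMIs, and shallower cells were left out. In the CD45+ libraries the mean share in neutrophils was 2.16% at day 1 (SD over cells 0.708, 190 of 216 cells), 4.71% at day 3 (SD 1.85, 136 cells) and 5.72% at day 5 (SD 2.70, 41 cells). In the CD11b+ pool it was 2.48% at day 1 (SD 1.39, 236 of 258 cells), 5.39% at day 3 (SD 2.16, 962 of 1004 cells) and 6.14% at day 5 (SD 3.15, 214 of 225 cells). Day 1 was thus the lowest in both experiments, and the 2 experiments lay within 1 point of each other at each day. Monocytes and macrophages had 11.9%, 12.8% and 12.5% at days 1, 3 and 5 in the CD45+ libraries and 14.1%, 13.9% and 14.0% in the pool (SDs over cells 3.59 to 4.53). No sample mean of one class overlapped those of the other, but single cells did. At day 5 of the pool the 90th percentile over neutrophils was 10.0%, and the 10th percentile over monocytes and macrophages was 9.585%.

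Within a sample the neutrophil share was lower by 8.75 ± 1.69 points (SD, n = 6 samples, lower in 6 of 6, range of the differences −11.6 to −6.74). The ratio of the monocyte and macrophage share to the neutrophil share was 5.50, 2.72 and 2.18 at days 1, 3 and 5 in the CD45+ libraries and 5.68, 2.58 and 2.28 in the pool. From day 1 to day 5 the neutrophil share was higher by 3.61 points as a mean of the 2 experiments, and that of monocytes and macrophages by 0.271 points. Without thinning the neutrophil shares were 2.27%, 4.68% and 5.78% in the CD45+ libraries and 2.48%, 5.31% and 6.04% in the pool. A share over the members carries no test here, since the members were chosen with earlier results of these data known.

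**Figure D1:**
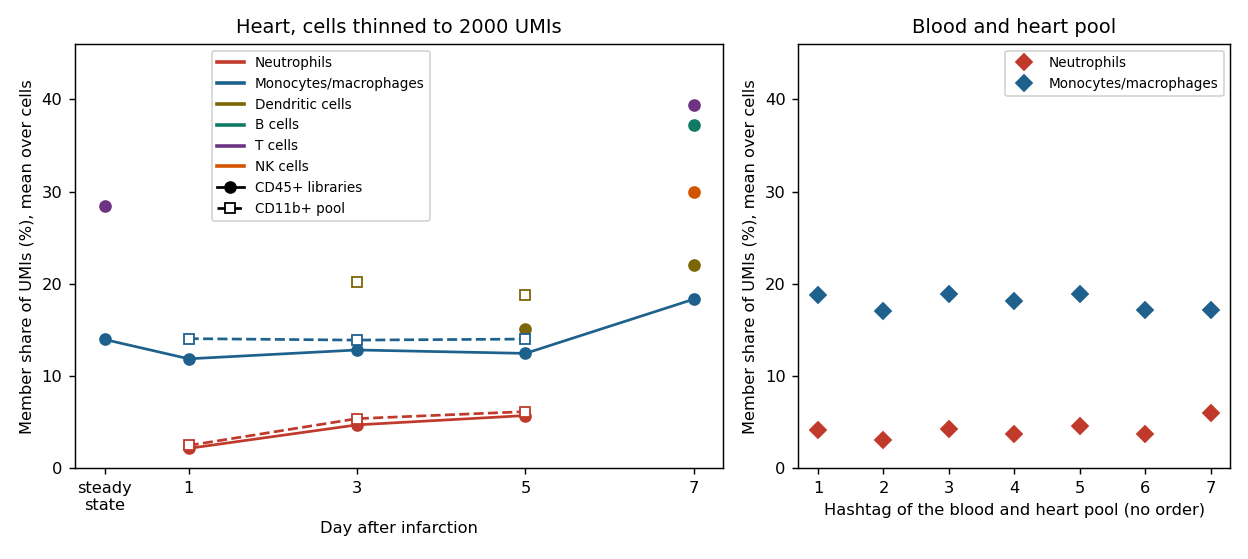
Share of UMIs from the 86 ribosomal protein genes (percent, mean over cells thinned to 2000 UMIs) by day and cell class in the heart (left, filled circles for CD45+ libraries, open squares for the CD11b+ pool) and by hashtag in the blood and heart pool (right, no order). Heart neutrophils lie between 2.16% and 6.14%, below every other class, and T and B cells of day 7 are the highest.

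Counted per cell before thinning, a neutrophil held on average 89.3, 146 and 152 ribosomal protein UMIs at days 1, 3 and 5 in the CD45+ libraries and 114, 221 and 273 in the pool. UMIs of all other genes per neutrophil were 3933, 3004 and 2461 in the CD45+ libraries and 4384, 3903 and 3877 in the pool. The ribosomal protein UMIs were thus higher while the others were lower at days 3 and 5 than at day 1. Each CD45+ day is a separate library, so the depth of a library and its day cannot be told apart in these counts. The days of the pool were read in the same library. Monocytes and macrophages held 1185, 1488 and 1145 ribosomal protein UMIs per cell in the CD45+ libraries and 3432, 4546 and 4283 in the pool.

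The summed level of 27 macrophage markers in neutrophils was 46.8%, 24.1% and 17.5% of that in monocytes and macrophages at days 1, 3 and 5 in the CD45+ libraries and 28.8%, 13.9% and 11.3% in the pool (0 to 2 of the 27 without a UMI). The level in monocytes and macrophages themselves was 2.02%, 3.57% and 6.24% of their UMIs in the CD45+ libraries and 3.20%, 3.76% and 5.16% in the pool, and the markers in neutrophils were 0.945%, 0.859% and 1.09%, and 0.921%, 0.524% and 0.585%. The C1q genes alone were at 3.92%, 10.1% and 6.93% of their level in monocytes and macrophages in the CD45+ libraries and at 12.6%, 6.21% and 6.54% in the pool, so their order over the days differed between the experiments. The 10 most abundant other genes took 38.3%, 25.1% and 21.1% of neutrophil UMIs in the CD45+ libraries and 26.0%, 19.6% and 18.0% in the pool, highest at day 1. Neutrophil markers took 21.8%, 10.7% and 6.39% in the CD45+ libraries and 10.4%, 5.31% and 6.54% in the pool. The part of any of these genes in the lower ribosomal protein share at day 1 was not tested.

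Different neutrophil clusters made up the days. In the CD45+ libraries a cluster led by Ngp, Retnlg and Lcn2 held 215 of the 216 neutrophils of day 1, and a cluster with G0s2 and Il1r2 held 132 and 41 neutrophils at days 3 and 5, so cluster and day cannot be told apart there. In the pool both of the clusters were present on each day. The cluster with Tnf, Icam1 and Ccrl2 had ribosomal protein shares of 2.67% (33 of 49 cells), 5.66% (800 of 838 cells) and 7.04% (153 of 163 cells) at days 1, 3 and 5. The cluster with Retnlg, Lcn2 and S100a9 had 2.44% (203 of 209 cells), 4.04% (162 of 166 cells) and 3.89% (61 of 62 cells). Both clusters of the pool were therefore lower at day 1 than at days 3 and 5.

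The UMIs of the ribosomal protein genes were also spread less evenly over the members in neutrophils. Evenness, the Shannon entropy of the member UMIs over its possible maximum at a fixed draw of 2000 member UMIs, was 0.906, 0.917 and 0.936 at days 1, 3 and 5 in neutrophils of the CD45+ libraries and 0.930, 0.945 and 0.950 in those of the pool. Monocytes and macrophages had 0.955, 0.954 and 0.949 in the CD45+ libraries and 0.961, 0.960 and 0.958 in the pool. Neutrophils were lower in 6 of 6 samples, by 0.0254 ± 0.0158 (SD, n = 6). Among 50 member UMIs of 1 cell, 31.4, 32.2 and 33.5 different members were expected in neutrophils of the CD45+ libraries and 32.7, 34.1 and 34.2 in those of the pool, against 34.7 to 35.8 in monocytes and macrophages. The difference was −2.30 ± 1.05 members (SD, n = 6, neutrophils lower in 6 of 6). Cells with fewer than 50 member UMIs were left out of this measure. At day 1 it used 163 of 216 CD45+ neutrophils and 221 of 258 in the pool, the smallest parts among these samples.

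The 5 leading members took 25.4%, 23.3% and 19.7% of the member UMIs in CD45+ neutrophils at days 1, 3 and 5, and 19.2%, 15.6% and 14.2% in the pool. In monocytes and macrophages they took 13.3%, 14.2% and 16.0%, and 11.7%, 12.0% and 12.4%. Averaged over both classes and the 6 samples, the core members with the largest share of core UMIs were Rpl41 (3.82%), the shortest of the proteins, then Rps27 (3.54%), Rps29 (3.38%), Rps9 (2.89%) and Rpl37a (2.18%). The smallest shares were those of Rpl5 (0.449%), which carries 5S rRNA into the large subunit, Rpl36a (0.454%), Rpl7a (0.511%), Rpl12 (0.534%) and Rpl4 (0.539%).

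Rps27, a zinc-binding protein of the small subunit, led in neutrophils of the CD45+ libraries with 6.92%, 7.45% and 5.65% of member UMIs at days 1, 3 and 5, and had 3.79%, 3.39% and 2.96% in the pool. Rps9, a protein that binds early in the assembly of the small subunit, took 6.78% at day 1 and 4.14% at day 3 in the CD45+ libraries, and 5.47% at day 1 in the pool, where it led. Rpl41 had 4.43%, 4.95% and 4.93% in CD45+ neutrophils and 3.94%, 3.35% and 3.29% in the pool. In monocytes and macrophages the order was flatter, with Rpl41 at 3.15%, 3.60% and 4.34% in the CD45+ libraries and 2.76%, 2.91% and 3.04% in the pool. Large subunit UMIs per small subunit UMI were 1.05 to 1.18 in the 6 neutrophil sums and 1.22 to 1.27 in the 6 sums of the other class.

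**Figure D2:**
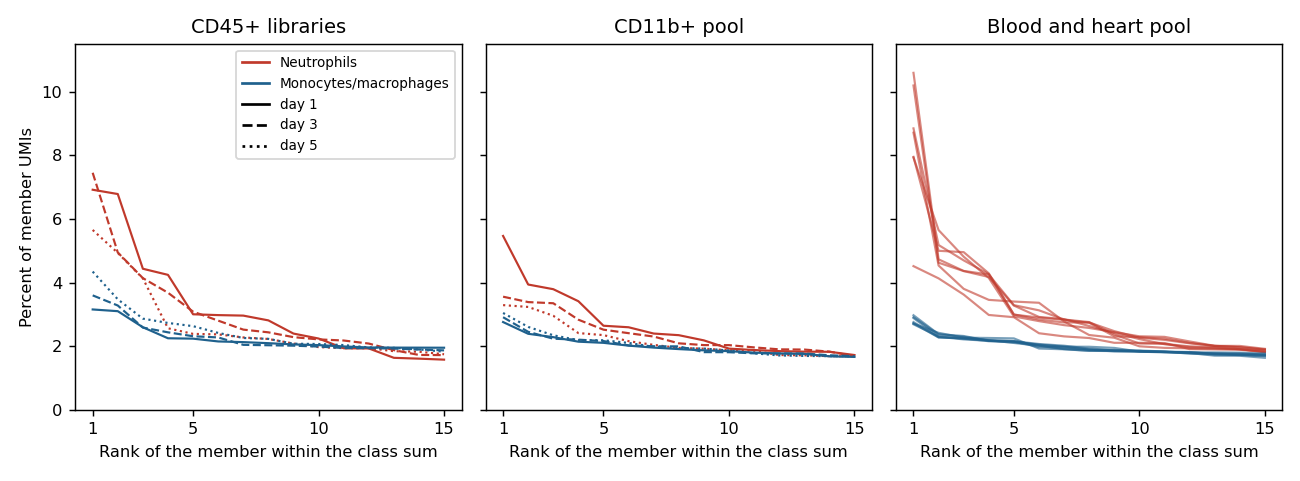
Percent of ribosomal protein UMIs taken by the 15 leading members, ranked within each class, in the CD45+ libraries, the CD11b+ pool and the blood and heart pool. The lines of neutrophils start higher and fall more steeply than those of monocytes and macrophages, with Rps27 and Rps9 among the leading members.

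Of 82 members with at least 50 counts per 1000000 UMIs (CPM), 14 took a larger part of the member UMIs in neutrophils than in monocytes and macrophages in all 6 samples, 27 a smaller part in all 6, and 41 were mixed. Among those on one side in all 6 samples, the highest median log2 ratios of these parts were those of Rps27rt (1.64), Rps27 (1.48), Rps9 (0.93), Rps25 (0.43) and Rps29 (0.38). The lowest were those of Rpl10a (−1.37), Rpl3 (−1.34), Rps4x (−1.22), Rpl12 (−0.99), Rpl35 (−0.91) and Rps18 (−0.89).

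Gene by gene, almost the whole set was lower in neutrophils. Of the 86 members, 84 passed the filter on low counts (Rpl10l, with 3 UMIs in all, and Rpl39l, with 188, did not). With edgeR's quasi-likelihood test, sample as a block and Benjamini-Hochberg adjustment at 0.05 over all genes, 80 of 84 members differed, 79 lower and 1 higher. Among all 8573 genes tested 56.3% were called, 33.2% lower and 23.1% higher, and these other genes made the clusters. The median log2 difference was −1.54 over the members and −0.20 over all genes. Scaled to total counts alone in place of TMM, the medians were −1.85 and −0.55. All 46 large subunit members and 29 of 31 small subunit members of the core were lower. In 6 of 6 samples 78 of 84 members (92.9%) lay lower, against 25.2% of all genes.

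Rpl10a, part of the mobile L1 stalk that guides the exit of tRNA, had 47.2, 95.7 and 196 CPM in neutrophils at days 1, 3 and 5 in the CD45+ libraries and 75.8, 178 and 241 in the pool. Monocytes and macrophages had 813, 895 and 898 CPM of it in the CD45+ libraries and 1194, 1174 and 1184 in the pool. Every neutrophil value lay below every value of the other class, and the difference was the most negative of the members (log2 −2.77, SE 0.21, 6.84-fold lower, adjusted p = 4.76e-08 by edgeR's quasi-likelihood test). A long noncoding RNA lies on the opposite strand at this locus, and whether any of its reads were counted for Rpl10a was not tested.

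Rpl3, which reaches toward the peptidyl transferase centre, had 101, 180 and 327 CPM in CD45+ neutrophils and 87.9, 180 and 327 CPM in the pool, against 1274, 1492 and 1689 CPM and 1377, 1308 and 1319 CPM in monocytes and macrophages. The groups did not overlap, and the log2 difference was −2.67 (SE 0.20, adjusted p = 4.80e-08, edgeR's quasi-likelihood test). Rps4x, the X-linked small subunit protein, had 128, 194 and 280 CPM and 148, 202 and 350 CPM in neutrophils, against 1342 to 1783 CPM in the other class (log2 −2.62, SE 0.18, adjusted p = 2.11e-08, edgeR). Rps18, in the head of the small subunit, Rpl12, at the base of the stalk that binds elongation factors, and Rpl35, at the exit of the peptide tunnel, followed with log2 differences of −2.33, −2.28 and −2.25. These 6 members were called in each fit that left 1 sample out.

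The members that the test did not call were Rps27, its copy Rps27rt, Rps9 and Rpl7l1, an Rpl7 paralog of ribosome assembly. Rps27 had 1536, 3450 and 3295 CPM in CD45+ neutrophils at days 1, 3 and 5 and 958, 1818 and 1944 CPM in the pool. In monocytes and macrophages it had 3240, 3345 and 3278 CPM, and 1699, 1512 and 1489 CPM. By CPM, neutrophils were lower at day 1 and higher at days 3 and 5 in both experiments, and the fitted log2 difference was 0.11 (adjusted p = 0.644, edgeR's quasi-likelihood test), which turned to −0.20 on total counts. Rps9 had 1506, 1917 and 1381 CPM in CD45+ neutrophils and 1381, 1352 and 1342 CPM in the pool, against 2140 to 2437 CPM in the other class. Its values did not overlap between classes within either experiment, yet the log2 difference fitted with TMM, −0.34, did not pass (adjusted p = 0.144, edgeR). On total counts it was −0.66 (adjusted p = 0.00826, edgeR). Rps27rt had a log2 difference of 0.39 (adjusted p = 0.0805 by edgeR and 0.0351 by DESeq2). Rpl7l1 had −0.49 (adjusted p = 0.128), and −0.83 on total counts (adjusted p = 0.0493, both edgeR). Rps27rt had 18.8 to 43.4 UMIs per 100 of Rps27 in the CD45+ libraries and 5.01 to 6.74 in the pool, and it lies opposite Osbpl10 on the other strand.

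Rpl3l, the paralog that replaces Rpl3 in striated muscle, was the 1 member higher in neutrophils. It had 39.1, 30.3 and 9.33 CPM in neutrophils at days 1, 3 and 5 in the CD45+ libraries and 23.3, 10.6 and 8.57 CPM in the pool. In monocytes and macrophages it had 4.71, 11.1 and 4.41 CPM, and 4.43, 2.37 and 0.920 CPM. Neutrophils were higher in 6 of 6 samples (log2 2.69, SE 0.33, 6.43-fold, adjusted p = 7.73e-06, edgeR's quasi-likelihood test), on 1 to 44 UMIs per neutrophil sum and 11 to 84 per sum of the other class. In sums of thinned cells it was below the filter on low counts and had no test. Rpl3l reached 38.6 UMIs per 100 of Rpl3 in CD45+ neutrophils of day 1 and 26.5 in those of the pool, and at most 0.746 in monocytes and macrophages. Summed levels of 7 cardiomyocyte markers (Myh6, Tnnt2, Actc1, Tnni3, Myl2, Myl3 and Ttn) were 24.2, 14.0 and 46.7 CPM in CD45+ neutrophils and 43.9, 18.6 and 16.1 CPM in the pool, with 3 to 7 of the 7 seen. They were 11.6, 8.24 and 43.0 CPM and 9.24, 4.94 and 4.16 CPM in monocytes and macrophages, thus lower than in neutrophils of the same sample in 6 of 6. Monocytes and macrophages of steady state had 298 CPM of these markers with 3.06 CPM of Rpl3l (12 UMIs).

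**Figure D3:**
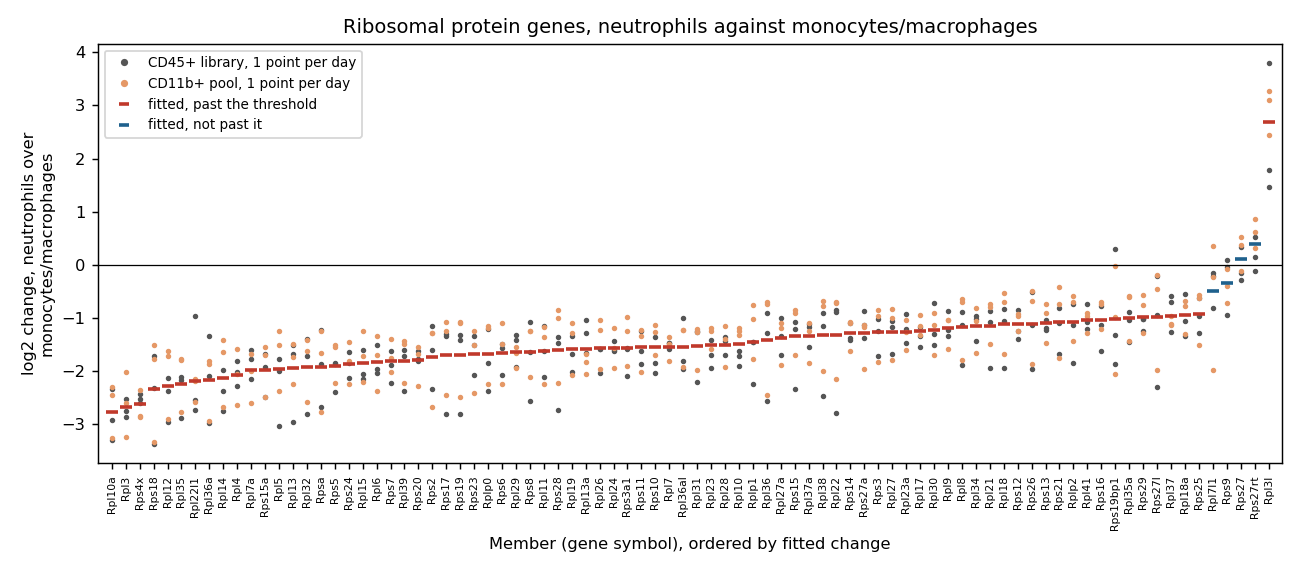
Log2 difference between neutrophils and monocytes/macrophages for each of the 84 members tested, sorted by the fitted value, with 1 point for each of the 6 heart samples. Rpl10a, Rpl3 and Rps4x stand lowest at −2.77, −2.67 and −2.62, and only Rpl3l, at 2.69, is called higher.

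Other genes of protein synthesis were counted in the same fit, in which 56.3% of all genes were called, 33.2% lower and 23.1% higher. Of 18 translation factors tested 16 were lower in neutrophils (median log2 −1.25), of 35 ribosome biogenesis genes 21 were lower (median −0.94), and of 77 genes of the mitochondrial ribosome 56 were lower and 1 higher (median −1.06). Of 16 growth regulators 3 were higher and 4 lower (median −0.29). Fau, the S30 precursor gene, had 1043, 2512 and 1942 CPM in CD45+ neutrophils and 2483, 3444 and 3411 CPM in the pool, against 2243, 2383 and 2032 CPM and 3525, 3192 and 3212 CPM in monocytes and macrophages, so its values overlapped.

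In neutrophils over time, few members passed the test singly, and most lay higher at days 3 and 5 than at day 1. The 6 neutrophil sums were fitted with experiment as a block. Their TMM factors were 0.532 and 0.860 at day 1 and 1.28 and 1.47 at day 5 (CD45+ library and pool). CPM are scaled to total UMIs and fitted changes to TMM, so a fitted change from day 1 lies below the ratio of CPM. From day 1 to day 3, 2 of 84 members rose and none fell, against 3.35% of 6276 genes called, 0.733% higher and 2.61% lower. The median log2 change was 0.42 over the members and 0.00 over all genes, and 67 of 84 members (79.8%) were higher in both experiments, against 31.9% of all genes. From day 1 to day 5, 6 members rose and 1 fell, against 8.83% of genes called, 2.26% higher and 6.56% lower, with medians of 0.47 and −0.03. Higher in both experiments were 56 members (66.7%), against 33.3% of all genes. Between days 3 and 5 no member and no gene was called by edgeR, with 0 members by DESeq2, and 0 members and 160 genes whose unadjusted p was under 0.05. These comparisons share their samples. Scaled to total counts alone, 29 members rose by day 3 and 74 by day 5, with none lower. The median of all genes was then 0.66 and 0.88, and that of the members 1.09 and 1.49. Genes as a whole thus also lay higher on this scale. The share of all genes called on it is not given here, so these counts cannot be read as particular to the members. Without the experiment block no member was called for either day.

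Rps27l, a paralog of Rps27 known as a target of p53, had the largest fitted rise at both days. It had 48.3, 275 and 560 CPM in CD45+ neutrophils at days 1, 3 and 5 and 67.2, 335 and 424 CPM in the pool. Day 1 was the lowest in both experiments and did not overlap the later days. The log2 change was 1.75 by day 3 (SE 0.39, adjusted p = 0.0135) and 2.08 by day 5 (SE 0.40, adjusted p = 0.00298, edgeR's quasi-likelihood test with Benjamini-Hochberg adjustment). Leaving out the CD45+ day 3 library gave an adjusted p = 0.0603 for day 3, leaving out day 3 of the pool gave 0.283, and leaving out the CD45+ day 5 library gave 0.0548 for day 5 (edgeR). In such fits a day left with 1 sample is assumed to vary like the others. Monocytes and macrophages had 417, 650 and 582 CPM of Rps27l in the CD45+ libraries and 437, 548 and 479 CPM in the pool, so neutrophils lay below them in 6 of 6 samples, by the widest ratio at day 1.

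Rpl22, an RNA-binding protein of the large subunit known to repress its own paralog, had 39.1, 254 and 308 CPM in CD45+ neutrophils at days 1, 3 and 5 and 153, 542 and 602 CPM in the pool. Day 1 was again lowest in both. The log2 change was 1.56 by day 3 (SE 0.40, adjusted p = 0.0289) and 1.42 by day 5 (SE 0.40, adjusted p = 0.0312, edgeR's quasi-likelihood test). The day 3 call was lost without CD45+ day 3 (adjusted p = 0.279) or day 3 of the pool (0.199), and the day 5 call without CD45+ day 5 (0.231), day 3 of the pool (0.0551) or day 5 of the pool (0.217, all edgeR). Sums of thinned cells gave an adjusted p by edgeR of 0.0659 and 0.0575 for the 2 days. Its paralog Rpl22l1 had 145, 77.0 and 84.0 CPM in CD45+ neutrophils and 54.3, 55.5 and 85.7 CPM in the pool. By CPM it was thus lower at the later days in the CD45+ libraries but not in the pool. On the TMM scale its fitted log2 changes were −1.16 and −0.96 and were not called. There were 371 Rpl22l1 UMIs per 100 of Rpl22 in CD45+ neutrophils at day 1 (126 against 34 UMIs), then 30.3 and 27.3 at days 3 and 5, and 35.4, 10.2 and 14.2 in the pool. Monocytes and macrophages had 98.7 to 104 in the CD45+ libraries of days 1 to 5 and 36.6 to 38.5 in the pool, with no such gap at day 1. An antisense RNA lies opposite Rpl22l1 on the other strand, and whether any of its reads were counted for Rpl22l1 was not tested.

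**Figure D4:**
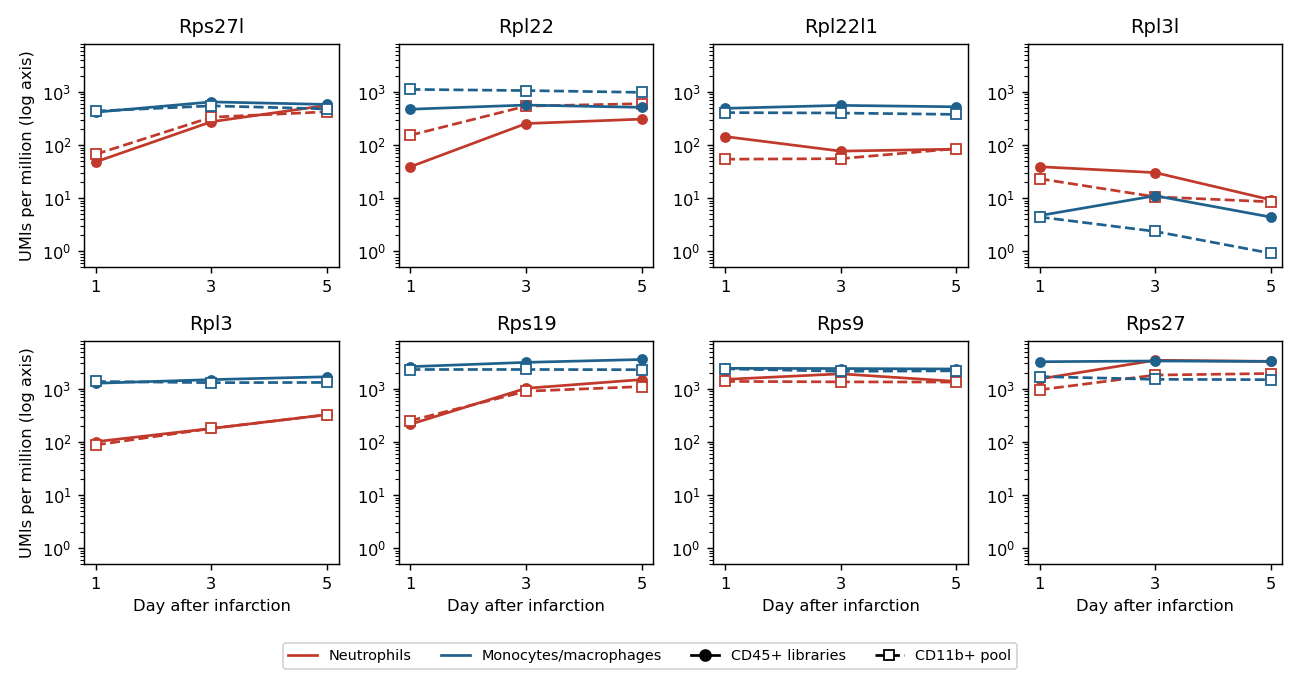
Level of 8 members (CPM, log axis) in neutrophils and in monocytes/macrophages at days 1, 3 and 5, filled circles for the CD45+ libraries and open squares for the CD11b+ pool. Rps27l of neutrophils goes from 48.3 and 67.2 at day 1 to 560 and 424 at day 5, Rpl3l goes down, and Rps9 stays between 1342 and 1917.

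By day 5 the small subunit members Rps19, the gene most often mutated in Diamond-Blackfan anaemia, and Rps18 also rose, as did Rpl36 and Rpl36a of the large subunit. Rps19 had 215, 1025 and 1494 CPM in CD45+ neutrophils at days 1, 3 and 5 and 252, 902 and 1104 CPM in the pool (day 5 log2 1.45, SE 0.40, adjusted p = 0.0254, edgeR). Rps18 had 136, 395 and 821 CPM and 124, 427 and 584 CPM (log2 1.40, SE 0.39, adjusted p = 0.0273, edgeR), and Vps52 lies opposite it. Rpl36 had 150, 476 and 859 CPM and 173, 671 and 845 CPM (log2 1.39, SE 0.39, adjusted p = 0.0291, edgeR). Rpl36a had 48.3, 138 and 345 CPM and 61.2, 170 and 215 CPM (log2 1.30, SE 0.41, adjusted p = 0.0479, edgeR). In each of the 4, both day 1 values lay below every later value. All 4 calls were lost without CD45+ day 5 (edgeR adjusted p = 0.195 for Rps19, 0.253 for Rps18, 0.224 for Rpl36 and 0.480 for Rpl36a) and without day 5 of the pool (0.165, 0.185, 0.213 and 0.155). Without day 3 of the pool the adjusted p by edgeR was 0.0540 for Rps18, 0.0573 for Rpl36 and 0.105 for Rpl36a, and without CD45+ day 3 it was 0.0744 for Rpl36a. DESeq2 gave an adjusted p = 0.0642 for Rpl36a.

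The 1 member that fell in neutrophils was Rpl3l, by 2.38 on the log2 scale at day 5 (SE 0.63, adjusted p = 0.0230, edgeR's quasi-likelihood test), on 34 UMIs at day 1 and 1 UMI at day 5 of the CD45+ libraries and 27 and 8 UMIs in the pool. The call was lost without CD45+ day 5 (0.179), without day 5 of the pool (adjusted p = 0.0933, both edgeR) with total counts (adjusted p = 0.117) and with thinned cells (0.164). Rps9 kept near 1342 to 1917 CPM over the days. On the TMM scale its fitted log2 changes were −0.50 and −1.07 and were not called. Rps19bp1 had 5.76, 14.0 and 46.7 CPM in CD45+ neutrophils and 5.17, 15.7 and 32.1 CPM in the pool (day 5 log2 1.79, adjusted p = 0.102, edgeR). Among related lists, beside the 8.83% of all genes called, 2 of 26 ribosome biogenesis genes passed by day 5 (median log2 1.41), 5 of 62 genes of the mitochondrial ribosome (median 1.27) and 1 of 18 translation factors (median 0.31).

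In monocytes and macrophages few members passed the test between days 1 and 5, and most lay somewhat lower at the later days. By day 3 edgeR called 0 of 85 members, against 0.868% of 10601 genes (0.651% lower), and DESeq2 called 0 members. The unadjusted p by edgeR was under 0.05 for 12 of the 85 members and 1888 of the 10601 genes. By day 5 it called 2, both lower, against 10.7% of genes and 6.07% lower. The median log2 change over the members was −0.23 by day 3 and −0.32 by day 5, beside 0.00 and −0.02 over all genes, and 76 members (89.4%) were lower in both experiments at day 5, against 38.3% of all genes. With total counts alone the medians of the members were 0.00 and −0.07, those of all genes 0.22 and 0.23, and 0 members were called. From day 3 to day 5 there were 0 members called by edgeR and by DESeq2 (0.0189% of genes by edgeR). The unadjusted p by edgeR was under 0.05 for 1 of 85 members and 819 of 10601 genes.

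Rpl8, a large subunit protein near the peptidyl transferase centre, had 1427, 1212 and 1017 CPM in CD45+ monocytes and macrophages at days 1, 3 and 5 and 1862, 1606 and 1464 CPM in the pool (log2 −0.67, SE 0.15, adjusted p = 0.0459, edgeR). Rps6, the small subunit protein phosphorylated by S6 kinase, had 2215, 2064 and 1788 CPM and 1271, 1079 and 934 CPM (log2 −0.63, SE 0.14, adjusted p = 0.0454, edgeR). Both were highest at day 1 and lowest at day 5 in each experiment. Both calls were lost without CD45+ day 3, CD45+ day 5, or day 3 or day 5 of the pool (edgeR adjusted p = 0.137 to 0.438 for Rpl8 and 0.150 to 0.349 for Rps6), and on total counts (0.105 and 0.128).

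Steady state and day 7 had 1 library each and no test. The monocyte and macrophage share was 14.0% at steady state (SD over cells 4.60, 500 cells) and 18.3% at day 7 (SD 4.26, 568 cells), the highest of the heart samples. Between steady state and day 1, 0 of 82 members differed by more than 2-fold, against 36.3% of the genes compared (median log2 −0.18 over the members). The lowest ratios were those of Rplp1 (log2 −0.97), a stalk protein, Rps21 (−0.93) and Rps12 (−0.84), and the highest that of Rpl36al (0.91). Gm49383, listed as protein-coding, overlaps Rpl36al on the same strand. Between day 5 and day 7, Rps12 (log2 1.16, from 603 to 1347 CPM) and Rps21 (1.05, from 597 to 1235 CPM) were more than 2-fold higher, against 1.45% of genes in either direction and 0.614% higher. The median was 0.58 over the members and −0.13 over all genes, with 76 of 82 members higher at day 7. Steady state cells lay mostly in a cluster with Mgl2, Cbr2 and Folr2 (516 cells, 487 of them in the share of 13.9%). That cluster had 16.5% at day 7, and a cluster with Plac8 and Chil3 had 12.3% and 19.6% at days 5 and 7. The day 7 library was the highest in each class that it holds together with another CD45+ library, and library and day cannot be told apart.

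Whether the change with time differed between the classes was tested as an interaction. In simulated data the day 5 interaction fit recovered 5.5% of changes of 2 on the log2 scale. Few calls thus cannot be read as few differences. For day 3 edgeR called 0 of 84 members (0.0195% of 10233 genes), with 27 members by DESeq2, and with 36 members and 1198 genes whose unadjusted p was under 0.05. For day 5 it called 3, all with a greater increase in neutrophils, against 0.801% of genes called and 0.45% higher. These were Rps27l (log2 difference of changes 1.94, SE 0.37, adjusted p = 0.0441), Rps18 (1.75, SE 0.36, adjusted p = 0.0479) and Rpl36 (1.71, SE 0.36, adjusted p = 0.0486, all edgeR's quasi-likelihood test). The median over the members was 0.76 and over all genes 0.01. All 3 calls were lost without CD45+ day 5, day 3 of the pool or day 5 of the pool (edgeR adjusted p = 0.109 to 0.578), and those of Rps18 (0.0582) and Rpl36 (0.0617) also without CD45+ day 3. Across settings the count for day 5 ranged widely, with 70 members on total counts, 36 by DESeq2 and 0 on thinned cells. The share of all genes called on total counts and by DESeq2 is not given here for either day.

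Lymphocytes carried the largest shares. T cells had 28.4% at steady state (SD over cells 7.54, 35 cells) and 39.4% at day 7 (SD 9.44, 99 cells), B cells 37.2% at day 7 (SD 3.81, 963 cells) and NK cells 30.0% at day 7 (SD 4.28, 37 cells). Dendritic cells had 15.1% at day 5 and 22.1% at day 7 in the CD45+ libraries, and 20.2% and 18.7% at days 3 and 5 in the pool. Evenness of the lymphocytes was 0.949 to 0.957, close to that of monocytes and macrophages.

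T cells and monocytes and macrophages were tested in the steady state and day 7 libraries, with 1 residual degree of freedom. Of 83 members 67 were higher and 1 lower in T cells by edgeR's quasi-likelihood test, against 19.7% of 8756 genes called and 7.54% higher. DESeq2 called 40 members, and the share of all genes that it called is not given here. The median log2 difference was 0.86 over the members and −0.12 over all genes. Rpl12 (1.49), Rps27rt (1.41) and Rps27 (1.37) were the highest. Rps27 had 10770 CPM in T cells and 3746 CPM in monocytes and macrophages at steady state, and 15302 and 4785 CPM at day 7. The lower member was Rps27l (log2 −1.12, adjusted p = 0.00691, edgeR), with 207 CPM in T cells and 368 CPM in the other class at steady state and 289 and 558 CPM at day 7. In the steady state library alone, 47 of 81 members were past 2-fold, against 39.9% of genes. T cells of day 7 and steady state differed by more than 2-fold in 0 of 81 members (16.1% of genes).

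B and NK cells reached 30 cells in the day 7 library only. There 44 of 82 members were more than 2-fold higher and 1, Rps27l (log2 −1.24), more than 2-fold lower in B cells, against 39.2% of genes past 2-fold and 13.6% higher. Rps27rt (2.10), Rps27 (1.93) and Rpl13a (1.65), a protein of the large subunit also released in interferon responses, were the highest. Gm45713, listed as protein-coding, overlaps Rpl13a on the same strand. In NK cells 18 of 82 were higher and Rps27l (log2 −1.01) was lower, against 39.1% of genes past 2-fold and 19.7% higher. In T cells of that library 50 of 82 members were past 2-fold, against 37.9% of genes. With sums of at least 10 cells, a choice made after seeing the data, edgeR's quasi-likelihood test called 71 of 82 members for B cells (43.8% of genes), 59 for T cells (41.4%) and 17 for NK cells (27.1%). Leaving 1 library out gave 14 to 75, 20 to 61 and 0 to 19 members. The share of all genes called in the fits without 1 library is not given here. With all libraries, Rps27l was lower in B, T and NK cells (log2 −1.28, −1.25 and −1.14).

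In the blood and heart pool the neutrophils of the 7 hashtags had shares of 4.14%, 3.11%, 4.27%, 3.72%, 4.54%, 3.69% and 5.95% (hashtags 1 to 7, median 4.14%). Monocytes and macrophages had 17.1% to 18.9% (median 18.2%), and these means over cells did not overlap between the classes. Neutrophil evenness ranged from 0.885 to 0.934 (median 0.896), against 0.956 to 0.958. Rps9 took 4.52% to 10.6% of the member UMIs of these neutrophils (median 8.71%), against 2.17% to 2.42% in monocytes and macrophages. Rps27 took 4.13% to 5.00% against 1.52% to 1.68%. Rps27a, a fusion of ubiquitin and a small subunit protein, took 2.91% to 5.65% against 2.16% to 2.38%. Rpl3 had 45.0 to 97.1 CPM in neutrophils and 1345 to 1633 CPM in the other class. Rpl3l had 18.2 to 32.4 CPM in neutrophils (median 23.3) and 5.22 to 18.1 CPM in monocytes and macrophages (median 14.9). The level of the cardiomyocyte markers was 9.47 to 35.2 CPM in these neutrophils and 1.08 to 1.82 CPM in monocytes and macrophages, and its part in the level of Rpl3l was not tested.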

How the data were processed

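The deposited matrices hold whole UMI counts per gene and cell, made by the authors with Cell Ranger, which was version 3.0.2 in both pools per the file headers and is not given in the sources used here for the CD45+ libraries; the build is mm10 per the submitters' processing notes. The members, gene lists and tests were chosen with earlier results of these data known. Kept barcodes had 200 genes or more and no more than 10% mitochondrial UMIs, 18 doublets marked by Scrublet in the CD45+ libraries were removed, and cells of the pools needed 1 hashtag. In the heart pool 1019 of 5862 barcodes exceeded 10%, 289 carried several hashtags and 283 none; in the blood and heart pool these were 232, 1430 and 163 of 11826.

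Cells were clustered in scanpy 1.11.5 without the members, Fau, ribosomal pseudogenes and a gene that is not reported here (2000 variable genes, 30 principal components, 15 neighbours, Leiden resolution 0.5). Classes needed 3 detected markers. Shares used cells thinned to 2000 UMIs. Raw UMIs were summed per class and sample with at least 30 cells and tested with edgeR 4.0.16 (quasi-likelihood, TMM factors, filterByExpr, Benjamini-Hochberg adjustment over all genes at 0.05, two-sided, R 4.3.3). TMM factors ranged from 0.506 to 1.29 in the fit of the 2 myeloid classes and from 0.532 to 1.47 in that of neutrophils by day. The code was tested on simulated data, with 200 genes changed by 2 on the log2 scale at a coefficient of variation of 30%. Between the myeloid classes 95.5% of them were recovered. By days 3 and 5 it was 64% and 43% in neutrophils, and 59% and 75% in monocytes and macrophages. For T cells it was 34%, and for the day 5 interaction 5.5%. False calls were 0% to 6.83% of the calls. Few calls where recovery was low cannot be read as few changes.

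Alternatives were total counts, DESeq2 1.42.0, no filter, other depths, the core list, other clusterings and leaving out each sample. The planned test of B and NK cells was not possible, since 1 library reached 30 cells, so 2-fold ratios (at least 50 CPM on average, 1 CPM added) and an added test at 10 cells stand in its place. Named members were the extremes in share and in each contrast, those lying on the same side in every sample or experiment where there were enough, and the 9 outside the core.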

Additional observations from a re-analysis of the deposited data

Results flagged for a closer look

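The change from day 1 to day 5 differed between neutrophils and monocytes and macrophages for 3 members by the test of the difference itself. Of 10233 genes tested 0.801% were called, 0.45% higher. As given above, the 3 calls were lost in several fits that left 1 sample out and on thinned cells. The log2 difference of changes was 1.94 for Rps27l, 1.75 for Rps18 and 1.71 for Rpl36, each with a greater increase in neutrophils. Rps27l went from 48.3 to 560 CPM in CD45+ neutrophils and from 417 to 582 CPM in monocytes and macrophages of the same libraries. Rps18 went from 136 to 821 CPM in the neutrophils and from 2441 to 2429 CPM in the other class. Rpl36 went from 150 to 859 CPM and from 1523 to 1433 CPM. In the CD11b+ pool the neutrophil values of day 1 and day 5 were 67.2 and 424 CPM for Rps27l, 124 and 584 CPM for Rps18 and 173 and 845 CPM for Rpl36.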

How the results depend on the processing

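Over the alternatives tried, 157 values stayed within 1.5 times (counts) or within their spread, 24 counts of calls rose, 32 dropped and 3 values moved; none reversed. Counts of members called between the myeloid classes were 76 to 82 over the settings, and 80 to 81 with 1 sample left out. On total counts alone the called members were 29 and 74 for neutrophils at days 3 and 5, 0 for monocytes and macrophages at day 5, 70 for the day 5 interaction and 68 for NK cells at 10 cells. DESeq2 called 5 for monocytes and macrophages at day 5, 27 and 36 for the interactions and 40 for T cells. Without the filter there were 0 for monocytes and macrophages at day 5 and 8 and 13 for the interactions. Thinned sums gave 0 for both day 5 results. Clusters made with the members gave 1 for each of those and 11 for NK cells, and Leiden 1.0 gave 5 for monocytes and macrophages. Without the experiment block there were 0 for neutrophils at both days and 0 for monocytes and macrophages. Fits of only the 2 days compared gave 4 for neutrophils at day 3, and 0 and 1 for monocytes and macrophages at day 5 against days 1 and 3. Leaving out 1 sample gave 0 to 9 and 0 to 15 for neutrophils at days 3 and 5, 0 to 0 between these days, 0 to 4, 0 to 16 and 0 to 1 for monocytes and macrophages, 0 to 8 and 0 to 16 for the interactions, and 14 to 75, 20 to 61 and 0 to 19 for B, T and NK cells. The within-sample differences then ranged from −9.16 to −8.19 points in share, −0.0288 to −0.0208 in evenness and −2.52 to −2.02 different members. The neutrophil increase was 3.52 points on the core list and 3.49 at 5% mitochondrial UMIs, and the hashtag median 3.10% at 4000 UMIs. The cause of these changes was not tested. Counts of members under the alternative settings are given without the share of all genes called there. No named member past the threshold changed direction under these settings in the myeloid and T cell contrasts.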

Other observations

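In the blood and heart pool, whose hashtags the labels tie to no condition, hashtag 7 stood apart from the others in its neutrophils. Its ribosomal protein share was 5.95%, against 3.11% to 4.54% in hashtags 1 to 6. Rps27l had 307 CPM in neutrophils of hashtag 7 and 49.4 to 70.2 CPM in hashtags 1 to 6, and Rpl22 had 504 CPM against 136 to 201 CPM. The neutrophil cluster with Cxcl2 and Basp1, given only where a hashtag has at least 30 cells of it, held 250 of the 404 neutrophils of hashtag 7 and 272 of hashtag 6, with shares of 6.61% (228 cells used) and 3.23% (261 cells used). In the other 3 neutrophil clusters hashtag 7 lay nearer the rest, at 5.56% against 3.26% to 5.22%, 3.97% against 2.63% to 3.86%, and 4.75% against 3.13% to 4.35%. The monocytes and macrophages of the 7 hashtags lay within 17.1% to 18.9%.

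Fau, whose product joins the small subunit but whose symbol is not that of a member, had 4104 to 5830 CPM in neutrophils of the 7 hashtags and 5133 to 6090 CPM in monocytes and macrophages. For each 100 UMIs of the members this was 8.74 to 13.6 UMIs in neutrophils and 2.92 to 3.18 in monocytes and macrophages.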
